A study of Mus musculus with 4 samples.

Results

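Leukocyte chemotaxis receptors are the membrane proteins with which white blood cells read a gradient of attractant, and 10 of their genes were followed here in the blood of mice given naringenin (Nar), a flavonoid. The genes were taken by symbol from the deposited table: Cxcr2, Fpr1, Fpr2, C5ar1, Ccr1, Ccr2, Cx3cr1, Cxcr5, Ccr7 and Cxcr4. All 10 were among the 17823 genes with values in each of the 4 libraries, and all 10 were among the 5339 genes that reached a mean of 0.5 FPKM and were tested; C5ar1, Ccr1 and Cx3cr1 reached it through their control values. FPKM counts fragments per kilobase of transcript, scaled to the mapped fragments of the library, so levels of different genes can be set side by side. Both groups were adult C57BL/6 mice according to the labels, and the study describes them as aging. The Nar group received naringenin and the control group (Ctrl) phosphate-buffered saline, each for 30 days, with Nar given into the tail vein. Each group had 2 libraries, numbered 1 and 3, made from blood mRNA captured with oligo(dT) beads, and the sources used here do not say whether a library came from 1 mouse or from several. P-values therefore measure the spread between these libraries.

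Chemotaxis receptors are coupled to G proteins of the Gi family, and once bound by their ligand they set off PI3-kinase gamma and Rac signalling that rebuilds actin at the front of the cell. Different leukocytes carry different receptors. Cxcr2, a receptor for the chemokines Cxcl1 and Cxcl2, and the formyl peptide receptors Fpr1 and Fpr2, which detect bacterial peptides, guide neutrophils to sites of infection. C5ar1, the receptor for complement fragment C5a, and Ccr1, which binds Ccl3 and Ccl5, are carried by neutrophils and monocytes. Ccr2 draws inflammatory monocytes out of the bone marrow towards Ccl2, while Cx3cr1, the fractalkine receptor, is highest on patrolling monocytes and is also found on some natural killer cells. Cxcr5 takes B cells to the follicles of lymphoid tissue, Ccr7 takes naive T cells and dendritic cells to lymph nodes, and Cxcr4, the receptor for Cxcl12, is present on most leukocytes and holds them in the marrow.

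Stretches from the start regions of 3 of the 6 receptors called lower are shown here, those that hold the PU.1 core described next, while Fpr1, C5ar1 and Ccr2 had no match to that core in the window searched. RefSeq start regions on GRCm38.p6 matched 8 of the 10 genes; Cxcr5 and Ccr7 had no entry. In the 250 bases before the start, GAGGAA, the core read by the myeloid factor PU.1, was found on either strand in 3 of the 8, Cxcr2, Ccr1 and Fpr2, and in 23.3% of 32851 start regions of all genes. Each stretch is written 5′ to 3′ along its gene, and capitals mark the PU.1 core, which reads TTCCTC where it lies on the opposite strand.
Cxcr2 (chr1:74153883-74153948, plus strand): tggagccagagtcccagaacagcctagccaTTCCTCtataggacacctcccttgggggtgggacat
Ccr1 (chr9:123968786-123968851, minus strand): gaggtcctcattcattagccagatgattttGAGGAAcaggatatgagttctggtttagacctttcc
Fpr2 (chr17:17887775-17887823, plus strand): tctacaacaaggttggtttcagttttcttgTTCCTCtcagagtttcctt
The pattern TTNNGNAA, a loose form of the C/EBP site, was present in 6 of the 8 (Cxcr4, C5ar1, Ccr1, Ccr2, Fpr1 and Fpr2) and in 36.8% of all start regions. TGTGGT, the RUNX core, was present in C5ar1, Cx3cr1 and Ccr1 and in 14% of all, and TGANTCA, which holds the AP-1 site, in 0 of the 8 and 6.75% of all. These matches describe the letters only, and the motifs were picked with the matches known.

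The receptors of neutrophils were lower in both Nar libraries, and Cxcr5, the chemokine receptor of B cells, was listed higher in both. For FPKM as deposited, Cxcr4 and Ccr7 differed by less than the median gene did. After median-of-ratios scaling, described below, their log2 differences (0.39 and 0.50) were larger in size than that of the median gene (-0.06). With limma on log2(FPKM + 0.1), 6 of the 10 receptor genes passed a Benjamini-Hochberg adjusted p-value of 0.05, all 6 lower with Nar: Cxcr2, Fpr1, Fpr2, C5ar1, Ccr1 and Ccr2. Of these, C5ar1 and Ccr1 reached the minimum for testing through their control values. Among all tested genes, 39.6% passed in that direction and 0.187% in the other, so that lower values were common across the blood transcriptome. The median log2 difference between Nar and control was -2.16 over the 10 receptors and -1.07 over the 5339 tested genes. For 7 of the 10 receptors the Nar values were both under the lower control value (78.3% of all tested genes), and for 1, Cxcr5, both over the higher one (1.27%). With 1 library left out, the spread came from the other group alone, so the sizes are compared. The median log2 difference of the receptors was then -1.58 without Ctrl 1 and -2.72 without Ctrl 3. It was -2.19 without Nar 1 and -1.80 without Nar 3. Fewer receptors were called in each of these fits than with all 4 libraries.

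**Figure D1:**
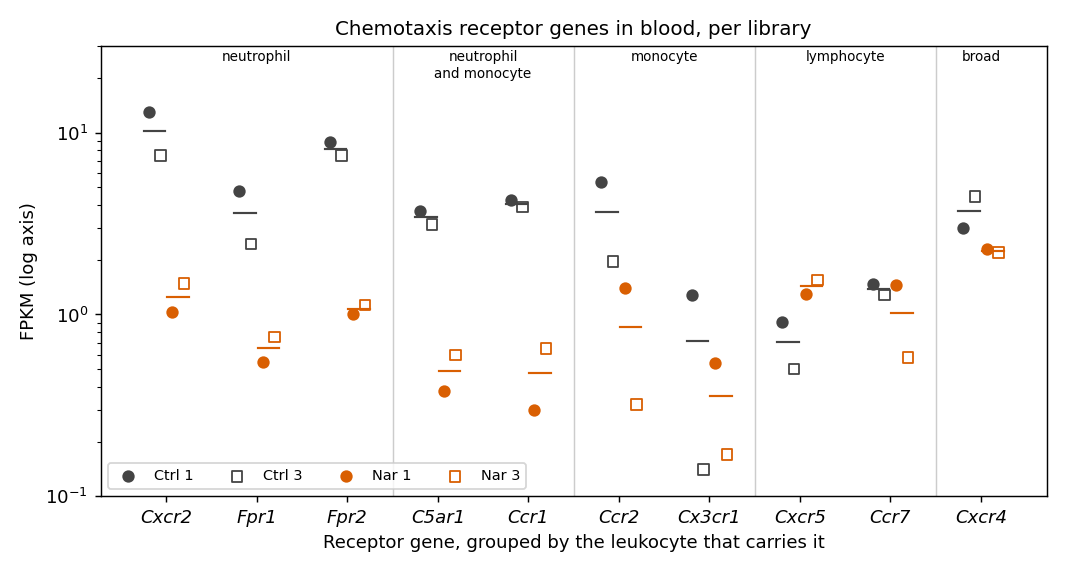
FPKM of each receptor gene in each library, on a log axis, with bars at the group means (n = 2). The 5 neutrophil and shared neutrophil and monocyte receptors lie between 2.44 and 12.97 FPKM in controls and between 0.3 and 1.48 FPKM with Nar, while Cxcr5 lies higher with Nar and the groups overlap for Cx3cr1 and Ccr7.

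Haemoglobin genes took 92.6% to 95.1% of summed FPKM in controls and 95.7% to 96.4% with Nar, and all other genes share what they leave. The median FPKM of the tested genes was 1.85 and 1.97 in controls and 0.89 and 0.74 with Nar. With haemoglobin genes removed, the median log2 difference of all tested genes was -0.56, beside -1.07 with them. The cause of the lower medians was not tested. Since the library medians differ, differences are also given after median-of-ratios scaling, which levels the typical gene between libraries. That scaling left 25 genes called, 0.356% of the tested genes lower and 0.112% higher. In bulk blood, fewer cells of a type and less RNA per cell cannot be told apart. Read number per library is unknown from the sources used here, and FPKM values were rounded to 2 decimals.

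Cxcr2, the main chemokine receptor of neutrophils (NCBI Gene 12765, chr1:74153994-74161246, positions here and for the other genes from RefSeq on GRCm38.p6), had the highest FPKM of the 10 in both control libraries. It had 12.97 FPKM in Ctrl 1 and 7.51 FPKM in Ctrl 3, against 1.03 FPKM in Nar 1 and 1.48 FPKM in Nar 3. The groups did not overlap, and the Nar mean was 12.3% of the control mean (10.2 ± 3.86 against 1.26 ± 0.318 FPKM, SD, n = 2). The log2 difference was -2.90 (standard error 0.461, limma adjusted p = 0.0057). Without Nar 1 it was -2.66 and without Nar 3 it was -3.14. Of its 50-base stretches, 6.68% also occur in other genes, so its level carries some uncertainty.

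Fpr2, the formyl peptide receptor that also binds annexin A1 (NCBI Gene 14289, chr17:17887824-17893952), was next in level in both control libraries, close to Cxcr2 in Ctrl 3. It had 8.87 FPKM in Ctrl 1 and 7.47 FPKM in Ctrl 3, against 1.00 FPKM in Nar 1 and 1.13 FPKM in Nar 3. Both groups were tight, at 8.17 ± 0.99 and 1.07 ± 0.0919 FPKM (SD, n = 2), and far apart. The log2 difference was -2.82 (standard error 0.402, limma adjusted p = 0.00448). Of the 50-base stretches in its annotated transcripts, 31.5% also occur in transcripts of Fpr1, Fpr3 or Gm5966. Since alignment can split reads between near-identical copies, the level of Fpr2 is uncertain; Fpr3 was blank in all 4 libraries and Gm5966 was not analysed here.

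Fpr1, the high-affinity receptor for formylated peptides, lies beside Fpr2 (NCBI Gene 14293, chr17:17876471-17883939). It stood at 4.75 FPKM (Ctrl 1) and 2.44 FPKM (Ctrl 3), then 0.55 FPKM (Nar 1) and 0.75 FPKM (Nar 3). Its groups did not overlap although the control libraries differed, and the log2 difference was -2.24 (standard error 0.42, limma adjusted p = 0.00993). The log2 difference was -2.05 without Nar 1 and -2.43 without Nar 3. With haemoglobin genes removed it was -1.73, with a limma adjusted p-value just over 0.05 (0.0511). Fpr2 was listed above Fpr1 in every library, at 1.87 and 3.06 times its FPKM in controls and 1.82 and 1.51 times with Nar.

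The receptors that neutrophils share with monocytes fell by a similar amount. Ccr1, a receptor for inflammatory chemokines (NCBI Gene 12768, chr9:123962126-123968692), had 4.25 FPKM in Ctrl 1 and 3.89 FPKM in Ctrl 3, against 0.30 FPKM in Nar 1 and 0.65 FPKM in Nar 3. Its Nar mean was 11.7% of the control mean, and the log2 difference was -2.93 (standard error 0.404, limma adjusted p = 0.00439). C5ar1, which reads complement activation (NCBI Gene 12273, chr7:16246743-16259540), stood at 3.73 FPKM (Ctrl 1) and 3.13 FPKM (Ctrl 3), then 0.38 FPKM (Nar 1) and 0.60 FPKM (Nar 3). Both Nar libraries lay well under both controls, with a log2 difference of -2.60 (standard error 0.367, limma adjusted p = 0.00444). Both genes reached the minimum for testing through their control values. Neither gene shared a 50-base stretch with another annotated gene.

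Among the monocyte receptors the control libraries differed more. Ccr2, the receptor of inflammatory monocytes (NCBI Gene 12772, chr9:124101918-124109140), had 5.36 FPKM in Ctrl 1 and 1.96 FPKM in Ctrl 3, against 1.39 FPKM in Nar 1 and 0.32 FPKM in Nar 3. The groups did not overlap, but each spanned a wide range (3.66 ± 2.40 and 0.855 ± 0.757 FPKM, SD, n = 2). Its log2 difference was -2.08 (standard error 0.644, limma adjusted p = 0.0354). It was -1.38 without Ctrl 1, -2.79 without Ctrl 3, -3.00 without Nar 1 and -1.17 without Nar 3. The call ended with haemoglobin genes removed (limma adjusted p-value 0.149) and with a pseudocount of 1 (0.0501). Cx3cr1, which marks patrolling monocytes (NCBI Gene 13051, chr9:120048683-120068296), stood at 1.28 FPKM (Ctrl 1) and 0.14 FPKM (Ctrl 3), then 0.54 FPKM (Nar 1) and 0.17 FPKM (Nar 3). Its groups overlapped, and the log2 difference of -0.47 (95% interval -2.27 to 1.33, limma adjusted p = 0.612) turned to 0.79 without Ctrl 1 and to 0.15 without Nar 3. Ctrl 1 and Nar 1 were the higher library of their group for both genes. The RefSeq gene Gm33858 overlaps Cx3cr1 over 5035 bases.

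Neither lymphocyte receptor passed the test. Cxcr5, the follicle-homing receptor of B cells (NCBI Gene 12145, chr9:44511787-44526444), had 0.91 FPKM in Ctrl 1 and 0.50 FPKM in Ctrl 3, against 1.30 FPKM in Nar 1 and 1.55 FPKM in Nar 3. Both Nar libraries lay above both controls, and the Nar mean was 202% of the control mean. The log2 difference of 0.97 (standard error 0.381, 95% interval 0.10 to 1.83) missed the threshold at a limma adjusted p = 0.0671. Other settings with all 4 libraries gave limma adjusted p-values from 0.0676 (pseudocount of 0.01) to 0.18 (no filter). The exception was the crossed replicate block, added after the data were seen, where Cxcr5 passed (limma adjusted p = 0.0316). Cxcr5 overlaps Bcl9l on the opposite strand over 120 bases, and the sources used here do not say that counting used strand; Bcl9l itself stood at 0.72 FPKM (Ctrl 1) and 0.46 FPKM (Ctrl 3), then 0.25 FPKM (Nar 1) and 0.16 FPKM (Nar 3).

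Ccr7, the lymph node homing receptor of naive T cells (NCBI Gene 12775, chr11:99144199-99155077), had 1.47 FPKM in Ctrl 1 and 1.28 FPKM in Ctrl 3, against 1.46 FPKM in Nar 1 and 0.58 FPKM in Nar 3. The groups overlapped, with Nar 1 at the control level and Nar 3 below it. The log2 difference was -0.52 (95% interval -1.51 to 0.48, limma adjusted p = 0.32), and without Nar 3 it was 0.08. Cxcr4, the retention receptor of many leukocytes (NCBI Gene 12767, chr1:128588199-128592299), stood at 2.98 FPKM (Ctrl 1) and 4.46 FPKM (Ctrl 3), then 2.29 FPKM (Nar 1) and 2.19 FPKM (Nar 3). Both Nar libraries lay below both controls, and the log2 difference of -0.68 (95% interval -1.62 to 0.26, limma adjusted p = 0.18) was smaller in size than the median of all tested genes.

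**Figure D2:**
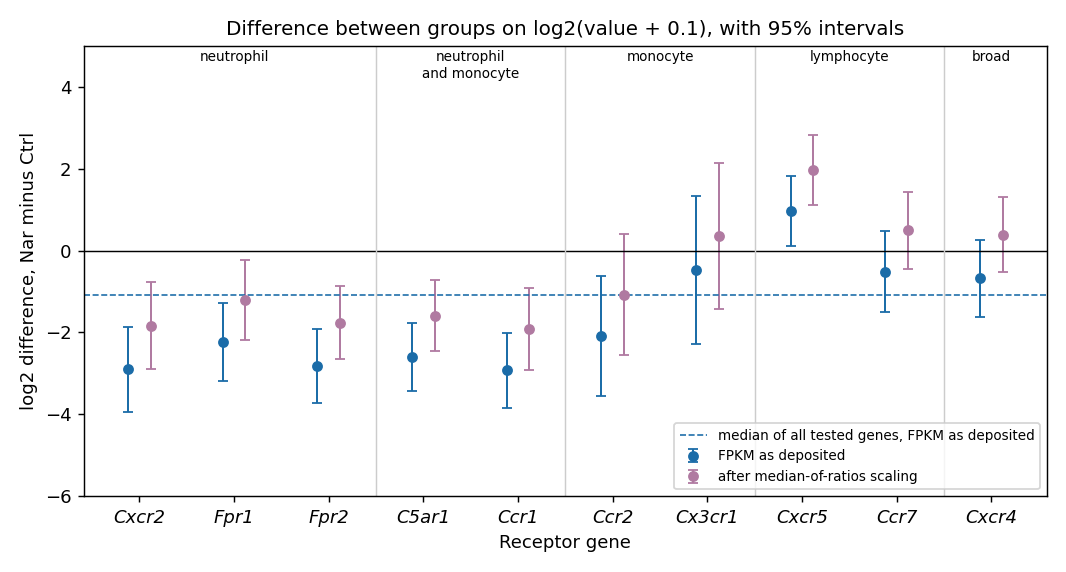
Log2 difference between Nar and control for each receptor gene, with 95% intervals from limma, for FPKM as deposited and after median-of-ratios scaling, with the median of all tested genes (-1.07) as a dashed line. The neutrophil receptors lie below the dashed line, Cxcr5 lies above 0 on both scales, and Cx3cr1, Ccr7 and Cxcr4 change sign with the scaling.

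Against the typical gene the neutrophil receptors were lower by less. After median-of-ratios scaling the log2 difference was -1.92 for Ccr1, -1.83 for Cxcr2, -1.76 for Fpr2, -1.59 for C5ar1, -1.21 for Fpr1 and -1.07 for Ccr2. It was 1.96 for Cxcr5, 0.50 for Ccr7, 0.39 for Cxcr4 and 0.36 for Cx3cr1. On this scale limma called 0 of the 10, while 6 had an unadjusted p-value under 0.05. The lowest adjusted p-value was that of Cxcr5 (0.0779), followed by Fpr2 (0.098), Ccr1 (0.104), C5ar1 (0.115) and Cxcr2 (0.128).

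Ratios within a library do not depend on a single scaling factor for the library, and they set the receptor classes directly against each other. The summed FPKM of the 3 neutrophil receptors was 11.2 times that of the 2 lymphocyte receptors in Ctrl 1 and 9.79 times in Ctrl 3. With Nar it was 0.935 times in Nar 1 and 1.58 times in Nar 3, so the groups lay far apart. The ratio of Cxcr2 to Cxcr5 alone was 14.3 and 15.0 in controls and 0.792 and 0.955 with Nar. For C5ar1 and Ccr1 together against the lymphocyte receptors it was 3.35 and 3.94 in controls and 0.246 and 0.587 with Nar. The smallest two-sided p of an exact permutation test with 2 libraries per group is 0.333, so these ratios are given without a test.

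By class median the 2 monocyte receptors stood between the neutrophil and lymphocyte receptors, but the 2 genes were unlike. Ccr2 (log2 difference -2.08) lay near the neutrophil receptor Fpr1 (-2.24), and Cx3cr1 (-0.47) near the lymphocyte receptor Ccr7 (-0.52). In controls the summed FPKM of the monocyte receptors was 2.79 and 1.18 times that of the lymphocyte receptors. With Nar it was 0.699 and 0.23 times, which did not overlap but spread widely within each group. Neutrophil against monocyte receptors overlapped between the groups, at 4.00 and 8.30 in controls and 1.34 and 6.86 with Nar. The median log2 difference was -2.82 for the 3 neutrophil receptors, -2.76 for the 2 shared ones, -1.28 for the 2 monocyte receptors and 0.23 for the 2 lymphocyte receptors. Under median-of-ratios scaling these medians were -1.76, -1.75, -0.36 and 1.23, and the last pair of classes each hold 2 genes with unlike values.

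**Figure D3:**
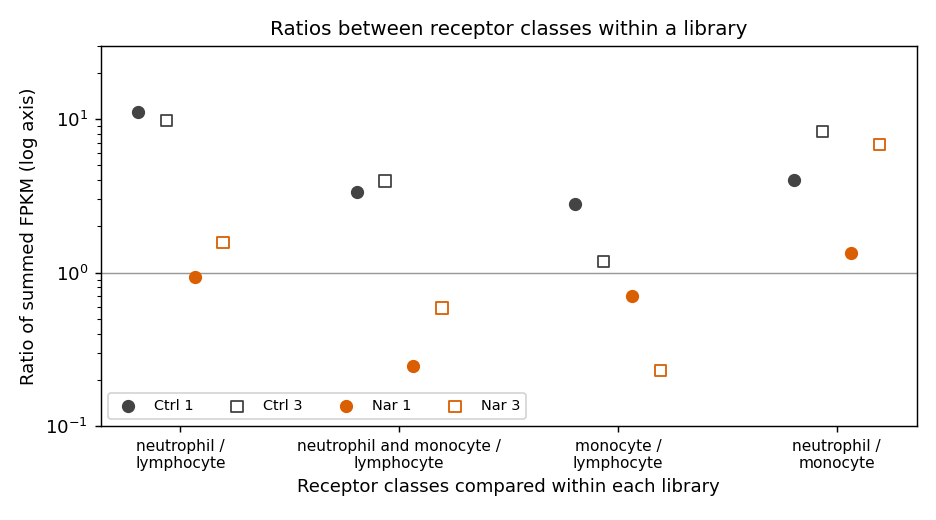
Ratio of summed FPKM between receptor classes within each library, on a log axis. The neutrophil to lymphocyte ratio is 9.79 or more in both controls and at most 1.58 in both Nar libraries, while the neutrophil to monocyte ratio overlaps between groups.

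The make-up of the receptor set differed between the groups too. Neutrophil receptors made up 57.1% and 53.1% of the summed receptor FPKM in controls and 25.2% and 35.7% with Nar. Lymphocyte receptors made up 5.11% and 5.43% in controls and 27.0% and 22.6% with Nar, and Cxcr4 alone 6.40% and 13.6% in controls and 22.4% and 23.2% with Nar. In Ctrl 1 the order began with Cxcr2, Fpr2 and Ccr2 and ended with Cxcr5, and in Ctrl 3 it began with Cxcr2, Fpr2 and Cxcr4 and ended with Cx3cr1. In both Nar libraries Cxcr4 was the highest of the 10, followed by Ccr7 in Nar 1 and Cxcr5 in Nar 3. Neighbours in these orders often lay within their spread, such as Cxcr2 at 7.51 and Fpr2 at 7.47 FPKM in Ctrl 3.

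Markers of blood cell types were measured in the same libraries, and of these lists the neutrophil markers had the lowest median log2 difference, -3.67. All 10 neutrophil markers were called lower with Nar (2 after median-of-ratios scaling, list median -2.57), of which Camp reached the minimum for testing through its control values, and their summed FPKM was 1424 to 1724 in controls and 104 to 163 with Nar, led by the calprotectin genes S100a9 and S100a8 and by Retnlg. Of 9 tested monocyte markers 4 were called lower, a share near the 39.6% of all tested genes, and 1 after median-of-ratios scaling (list median -0.67), with summed FPKM of 104 and 103 in controls and 12.5 to 30.3 with Nar, and with F13a1, Ly6c2 and Cd14 the most abundant. Among the 7 B cell markers limma called 0, and 0 had an unadjusted p-value under 0.05 (summed FPKM 32.4 to 43.1 in controls and 32.6 to 32.7 with Nar), and of 5 tested T cell markers it called 0, with 1 under that unadjusted value (4.91 to 7.89 and 3.53 to 4.91). Of 5 tested NK cell markers 1 was called lower, Gzma, and the summed FPKM was 18.4 to 20.6 in controls and 4.67 to 9.52 with Nar. No marker of these lists was at 0 in any library except Klre1, an NK cell gene. For platelet markers limma called 0 of 5, with 1 at an unadjusted p-value under 0.05 (617 and 1994 in controls, 403 to 510 with Nar), and for erythroid markers 0 of 6 tested, with 0 under it (6148 to 7154 and 6632 to 6735, mostly Alas2). Median-of-ratios scaling moved the list medians from -0.34 to 0.76 for B cell, from -0.47 to 0.50 for T cell and from 0.63 to 1.71 for erythroid markers, where limma called 0 in each list, with 2, 1 and 6 genes at an unadjusted p-value under 0.05. The part of these cell types in the receptor differences was not tested.

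**Figure D4:**
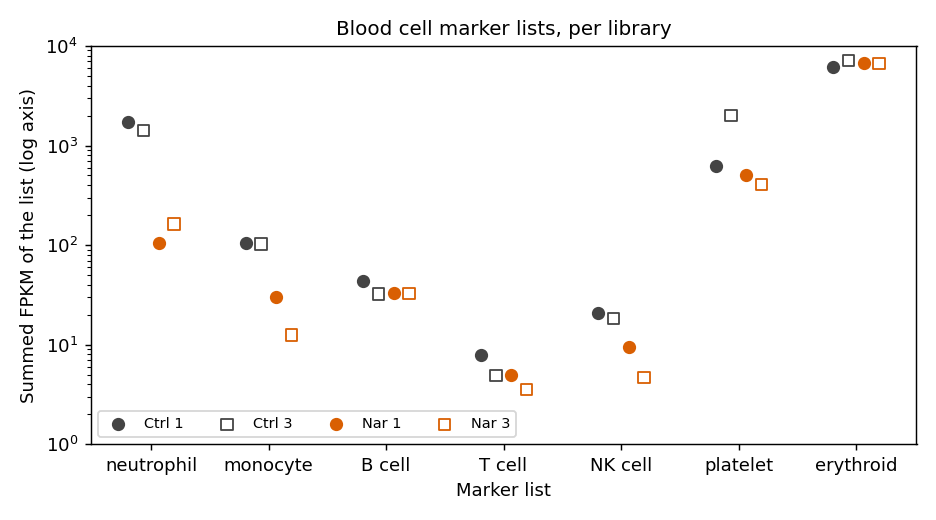
Summed FPKM of each blood cell marker list in each library, on a log axis. Neutrophil, monocyte, NK cell and platelet sums are lower in both Nar libraries, while B cell, T cell and erythroid sums of the groups overlap or touch.

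The summed FPKM of the neutrophil receptors was 1.54% and 1.22% of that of the neutrophil markers in controls and 2.48% and 2.06% with Nar. This direction restates that the markers had a lower median log2 difference (-3.67) than the neutrophil receptors (-2.82). The markers were chosen with earlier results known, and S100a9, S100a8 and Retnlg lead their sum. Cxcr2 was 0.35 and 0.328 times the FPKM of Csf3r, the granulocyte growth factor receptor, in controls and 0.414 and 0.463 times with Nar. Over the 10 neutrophil markers taken singly, its ratio was higher in both Nar libraries for 9, and lower for 1, Mmp9 (0.534 and 0.511 in controls, 0.507 and 0.479 with Nar). Cxcr5 was 2.11% and 1.54% of the summed B cell markers in controls and 3.98% and 4.75% with Nar, again without overlap. Against single monocyte markers Ccr2 had no one direction: its ratio to Csf1r, the macrophage growth factor receptor, was 0.835 and 0.794 in controls and lower with Nar (0.659 and 0.33). Its ratio to Ly6c2 was 0.197 and 0.0636 in controls and higher with Nar (0.515 and 0.386), as was that to Cd14, while that to F13a1 overlapped. For Ccr7 against T cell markers (18.6% and 26.1%, then 29.7% and 16.4%) and monocyte receptors against monocyte markers (6.39% and 2.04%, then 6.38% and 3.91%), the groups overlapped.

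Of 31 other chemoattractant receptors, 27 had values and 6 reached the minimum for testing, with 2 called lower and 0 higher, which is no larger a share than the 39.6% of all tested genes. Their median log2 difference was -0.58, turning to 0.44 under median-of-ratios scaling, where limma called 0 (3 at an unadjusted p-value under 0.05). Ltb4r1, the leukotriene B4 receptor of neutrophils, had 2.00 FPKM in Ctrl 1 and 1.62 FPKM in Ctrl 3, against 0.46 FPKM in Nar 1 and 0.34 FPKM in Nar 3 (log2 difference -1.94, limma adjusted p = 0.00876). Ccrl2, a receptor that binds chemerin without signalling, was the other, with a log2 difference of -3.28 (limma adjusted p = 0.0108). Both reached the minimum for testing through their control values. S1pr4 and S1pr1, receptors for sphingosine-1-phosphate, of which S1pr1 lets lymphocytes leave lymphoid tissue, had log2 differences of -0.71 and -0.45 and did not pass (limma adjusted p = 0.159 and 0.277).

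A list of 12 ligands of the 10 receptors was examined, which does not hold every ligand. Of these, 10 had values, 4 were tested and 3 were called lower (39.6% of all tested genes), of which 1, Cxcl2, was called after median-of-ratios scaling. Cxcl2 and Ccl3 reached the minimum for testing through their control values. Cxcl2, which binds Cxcr2, stood at 13.4 FPKM (Ctrl 1) and 10.5 FPKM (Ctrl 3), then 0.12 FPKM (Nar 1) and 0.36 FPKM (Nar 3). Anxa1, a ligand of formyl peptide receptors, had 32.7 FPKM in Ctrl 1 and 19.0 FPKM in Ctrl 3, against 2.44 FPKM in Nar 1 and 3.67 FPKM in Nar 3 (log2 difference -3.02, limma adjusted p = 0.0073). Ccl3, which binds Ccr1, had a log2 difference of -2.54 (limma adjusted p = 0.0122), while Ccl5, another ligand of Ccr1, had one of -1.08 and did not pass (limma adjusted p = 0.097). Outside the list, the Ccr1 ligands Ccl6 and Ccl9 had log2 differences of -2.76 and -1.18 (limma adjusted p = 0.00774 and 0.0461), and Ppbp, a platelet chemokine that binds Cxcr2, one of -0.95 that did not pass (limma adjusted p = 0.181). Cxcl13 and Ccl21a, ligands of Cxcr5 and Ccr7, were listed at 0 throughout.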

How the data were processed

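Blood mRNA was sequenced in 2 control and 2 Nar libraries. One FPKM value for each gene and library was deposited by the authors, with 2 decimals kept. The submitters' processing notes name TopHat2, Cufflinks and GRCm38, while the methods name bowtie-2; the counting step and annotation are not given in the sources used here. Each column was matched to 1 library, and 0 were left over. Of 23136 genes, 5313 were blank throughout.

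Differences of log2(FPKM + 0.1), which understate changes of low genes, were tested in the 5339 genes whose mean over all 4 libraries reached 0.5 FPKM, in R 4.3.3 with limma 3.58.1 (lmFit, eBayes with trend; Benjamini-Hochberg). The study used DEGseq, which needs read numbers. The fit was also run on simulated data with 200 of 5339 genes changed by a log2 of 2, up or down. It recovered 172 of them and called 21 unchanged genes, and with none changed it called 3. The simulation held no shift of most genes the same way, unlike these data.

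The members, classes, marker lists and motifs were chosen with earlier results of these data known. Named genes were all members, the 3 most abundant genes of each other list and the members' ligands; Ccrl2, Gzma, Klre1, Csf3r, Csf1r, Mmp9, Camp, Ccl6, Ccl9, Ppbp, Pik3cg and Rgs1 were named after their values were seen. Shared stretches came from GENCODE M21 transcripts, and gene positions and start regions from RefSeq (GRCm38.p6). Plots used matplotlib 3.10.9 in Python 3.11.15. Alternatives changed the pseudocount (1 or 0.01) or the filter (none or 5 FPKM), or used TPM, haemoglobin removed, median-of-ratios scaling, no trend, a replicate block, and each library left out.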

Additional observations from a re-analysis of the deposited data

How the results depend on the processing

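With all 4 libraries and FPKM as deposited, limma called 2123 of 5339 genes and 6 of the 10 receptors. Median-of-ratios scaling left 25 genes and 0 receptors (6 at an unadjusted p-value under 0.05), a receptor median of -1.14 beside -0.06 for all tested genes, and reversed Cx3cr1 (0.36), Ccr7 (0.50) and Cxcr4 (0.39), none of which had passed. With haemoglobin genes removed 281 genes and 4 receptors (not Fpr1 or Ccr2) were called, and the receptor median was -1.66 beside -0.56 for all tested genes. Without the filter limma called 0 of 16382 genes and 0 of 10 receptors (4978 and 5 at an unadjusted p-value under 0.05), and with a minimum of 5 FPKM 117 genes and 1 receptor, Cxcr2, the only one tested. A pseudocount of 1 gave a receptor median of -1.36 beside -0.62 for all tested genes. Leaving out 1 library gave 0 to 259 genes, 0 to 4 receptors, receptor medians from -2.72 to -1.58, and a log2 change of the neutrophil to lymphocyte receptor ratio from -3.48 to -2.73 (-3.11 with all). The log2 difference of Cx3cr1 ranged from -1.73 to 0.79 when 1 library was left out (above 0 without Ctrl replicate 1 and, at 0.15, without Nar replicate 3). That of Ccr7 ranged from -1.11 to 0.084 (above 0 without Nar replicate 3). The cause of these changes was not tested, beyond the fewer samples and other gene sets that the alternatives use.

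Same-numbered libraries shared only a number (correlation of deviations -0.153 across genes). With the replicate block 1815 genes and the same count of 6 receptors passed. The crossed replicate block, added after the data were seen, gave 3233 genes and 7 receptors. Over all alternatives of single receptors, 93 values kept their direction and side of the threshold, 31 no longer passed, 1 newly passed and 6 reversed. The value that newly passed was Cxcr5 in the crossed replicate block. The reversals include those of Cx3cr1, Ccr7 and Cxcr4 under median-of-ratios scaling, which moved the median of all tested genes from -1.07 to -0.06. Unknown read numbers limit values under 1 FPKM.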

Other observations

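Genes that act below the chemotaxis receptors were mostly called lower. Of 32 listed, 28 were tested, 20 were called lower with Nar (39.6% of all tested genes were) and 0 higher, and Pik3cg and Rgs1, both among the called, reached the minimum for testing through their control values. The median log2 difference was -1.44 beside -1.07 for all tested genes. Gnai2, the main inhibitory G protein subunit of leukocytes, had 63.4 FPKM in Ctrl 1 and 101.7 FPKM in Ctrl 3, against 35.7 FPKM in Nar 1 and 28.3 FPKM in Nar 3, and its log2 difference of -1.34 did not pass (limma adjusted p = 0.0644). Rgs18, a regulator of G protein signalling found in platelets and myeloid cells, had 50.02 and 90.5 FPKM in controls and 32.8 and 24.3 FPKM with Nar (limma adjusted p = 0.0819). Rac1, the GTPase that drives actin at the leading edge, had 32.9 and 56.5 FPKM in controls and 32.1 and 15.1 FPKM with Nar (limma adjusted p = 0.176). These 3 were the most abundant of the list, and after median-of-ratios scaling limma called 0 of the 28 (3 at an unadjusted p-value under 0.05), with a list median of -0.41.

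Cxcr2 ranked at percentile 89.0 and 79.4 of the tested genes by FPKM in controls and at 54.6 and 69.2 with Nar, while Cxcr5 ranked at 16.7 and 2.34 in controls and at 61.5 and 70.2 with Nar. Cxcr4 ranked at 66.0 and 70.8 in controls and at 73.5 and 76.5 with Nar, so its place among the genes was higher in both Nar libraries although its FPKM was lower. The tested genes were chosen by their mean over all 4 libraries. Genes that reached the minimum through control values take low ranks with Nar, which can raise the percentile of others there.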
